A study of Mus musculus with 4 samples.

Results

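The genes described here are 10 members of the MHC class I antigen presentation pathway, out of 27998 genes in the count tables. They were listed by name for their place in the pathway: the heavy chains *H2-K1*, *H2-D1*, *H2-Q4*, *H2-Q7* and *H2-T23*, the light chain *B2m*, the loading genes *Tap1* and *Tapbp*, and the immunoproteasome subunits *Psmb8* and *Psmb9*. All 10 were detected in all 4 libraries. Cells were sorted as satellite cells, the stem cells of skeletal muscle, by the surface markers ITGA7+/VCAM+/Lin- from lower hindlimb muscle, where Lin- means negative for Cd11b, Sca1, Cd45 and Cd31. B10 was a wild-type C57/Bl10ScsSn library at 15 weeks of age, *mdx* was C57BL/10ScSn-Dmdmdx at 11 weeks, DBA was wild-type DBA/2 at 13 weeks, and D2-*mdx* was D2.B10-Dmdmdx at 14 weeks. The *mdx* allele is a mutation in *Dmd* that removes full-length dystrophin in every cell of the body, so the muscle around the sorted cells lacked dystrophin as well. Each strain was 1 library from 2 pooled mice, with 1 single-cell 3′ library per group, so no difference between strains has a replicate check, and age and library cannot be told apart from genotype.

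MHC class I molecules show peptides from the inside of a cell to CD8+ T cells. Proteasomes cut the peptides, the TAP transporter carries them into the endoplasmic reticulum, tapasin holds the empty heavy chain at the transporter, and the loaded heavy chain leaves for the surface with β2-microglobulin. Most nucleated cells make these genes at a basal level and raise them in response to interferons. Healthy muscle fibres are known for low class I, and inflamed muscle for more of it. The classical heavy chains differ in sequence between mouse strains: C57 strains carry the b haplotype of H2, the mouse MHC, and DBA/2 carries the d haplotype, while the reads were aligned to a C57BL/6 genome. Heavy chain levels are therefore compared only within a background, *mdx* with B10 and D2-*mdx* with DBA. Whether the D2-*mdx* animals carried the H2 region of DBA/2 throughout was not tested. How reads of the d haplotype mapped to the C57BL/6 genome was not tested either, and this limits the heavy chain counts of DBA and D2-*mdx*.

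In the GRCm38 genome, 9 of the 10 members lie in the H2 region of chromosome 17. *H2-K1* is at chr17:33996017-34000347 on the minus strand, *H2-D1* at chr17:35262730-35267499, *H2-Q4* at chr17:35379617-35385290 and *H2-Q7* at chr17:35439155-35443773 on the plus strand, and *H2-T23* at chr17:36029773-36032855 on the minus strand. *Tapbp* is at chr17:33915899-33929292. *Psmb9*, *Tap1* and *Psmb8* are neighbours, at chr17:34181987-34187764, chr17:34187553-34197225 and chr17:34197721-34201454. *B2m* is at chr2:122147686-122153083. UMIs of a 3′ library come from the ends of transcripts, so the last 400 bases of each member were compared with all other transcripts in windows of 90 bases. For *H2-Q4*, 39 of 311 windows (12.5%) also occurred in a gene outside H2, and for *H2-T23* 50 of 311 (16.1%). The other 8 members shared none, and no window was shared between a member and another H2 gene. Only exact matches were counted, for the longest coding transcript of each member in the reference. Windows that differ by a few bases were not covered, so reads assigned to the wrong H2 gene are not excluded.

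The promoters are shown for the members whose windows held a searched interferon-response motif. *H2-K1*, *H2-D1*, *H2-Q4* and *H2-Q7* carried nearly the same stretch. Whether these stretches have a part in the levels that follow was not tested, and the sequences of the DBA and D2-*mdx* animals were not examined. Sequences are from RefSeq promoter windows of 300 bases, 250 of them before the transcript start, on GRCm38.p6, written 5′ to 3′ along the gene. In the first 4, capitals mark the motif GGGNNTTCC and the letters TTTCACTTC, which are the reverse complement of the motif GAANNGAAA. In *B2m* and *H2-T23* they mark the motif GAAANNGAA or its reverse complement.
H2-K1, chr17:34000429-34000458, minus strand: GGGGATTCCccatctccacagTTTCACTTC
H2-D1, chr17:35262923-35262952, plus strand: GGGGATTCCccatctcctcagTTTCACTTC
H2-Q4, chr17:35379444-35379472, plus strand: GGGATTTCCcatctccccagTTTCACTTC
H2-Q7, chr17:35439022-35439050, plus strand: GGGGATTCCcatctccccagTTTCACTTC
B2m, chr2:122147538-122147566, plus strand: ataagaacatGAAACTGAAaatgggaaag
H2-T23, chr17:36032806-36032834, minus strand: tcctactgctTTCTCTTTCataaagacac

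The reference held 11 windows for the 10 members, with 2 for *H2-K1*. On either strand, GGGNNTTCC, a core bound by NF-kappaB-like factors, was in the windows of 4 members and in 5.82% of all 32851 windows. GAAANNGAA, an interferon-stimulated response element core, was in 2 members and in 8.56% of windows. GAANNGAAA, which was added after the promoters had been seen, was in 4 members and in 7.52% of windows. TGACGC, an X2/CRE-like core, was in *H2-K1*, *H2-D1* and *H2-Q4* and in 7.40% of windows. In *H2-K1* and *H2-D1* it lay before the transcript start on the strand of the gene. In *H2-Q4* it lay after the start on the opposite strand. None of these letters were in the windows of *Tap1*, *Tapbp*, *Psmb8* or *Psmb9*. The windows of *Tap1* and *Psmb9* overlap on opposite strands.

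The tables held 3539 to 9931 barcodes and 43542853 to 75482888 UMIs per library. After filtering, 3279 to 6313 cells per library were kept, with medians of 6666 to 10434 UMIs per cell, and any pair of libraries shared 5 to 16 barcodes. *Dmd* in myogenic cells was at 324 and 287 CPM (UMIs scaled to the same total in each library) in B10 and DBA and at 120 and 94.5 in *mdx* and D2-*mdx*. Classes of cells were built without the class I genes and named by marker genes, so a name ending in "-like" means resemblance. In the order B10, *mdx*, DBA and D2-*mdx*, myogenic cells numbered 4418, 4821, 2699 and 4186, of which 4092, 3135, 2500 and 2865 were muscle stem cell (MuSC)-like. The class called DMD-enriched-like after its collagen and *Postn* genes had 67, 983, 58 and 611 cells. Endothelial cell-like cells (14, 252, 9 and 89) and white blood cell-like cells (1, 109, 24 and 157) were present although the sort gated out Cd31 and Cd45, and both expressed the gene of the gate, with *Pecam1* at 941 CPM in the former and *Ptprc* at 421 CPM in the latter over all libraries. Intervals here are exact 95% intervals and cover counting error only.

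*H2-K1*, one of the classical heavy chains, was lower in *mdx* than in B10 and higher in D2-*mdx* than in DBA. B10 myogenic cells held 179 CPM and *mdx* cells 119, whereas DBA cells held 112 and D2-*mdx* cells 154. On the log2 scale *mdx* over B10 gave -0.58 (-0.64 to -0.53), and D2-*mdx* over DBA gave 0.46 (0.40 to 0.52). *H2-D1*, a classical heavy chain as well, was nearly level in the first background, at 239 CPM in B10 and 229 in *mdx*, and stood at 348 in DBA and 422 in D2-*mdx*. Its ratios were -0.06 (-0.10 to -0.02) and 0.28 (0.24 to 0.32). The ratio of *H2-D1* to *H2-K1* UMIs was 1.34 (1.30 to 1.38) in B10 and 1.92 (1.86 to 1.99) in *mdx*, so the balance of these UMIs lay further towards *H2-D1* in *mdx*. In the other background it lay the opposite way, at 3.10 (2.98 to 3.23) for DBA and 2.74 (2.66 to 2.83) for D2-*mdx*. Which heavy chain genes of the d haplotype were counted under these names was not tested, so these ratios need not be a balance of the genes themselves. Within MuSC-like cells the ratio of UMIs was 1.35 (1.31 to 1.40) in B10 and 1.97 (1.89 to 2.06) in *mdx*. For DBA it was 3.16 (3.03 to 3.29) and for D2-*mdx* 3.21 (3.08 to 3.34), so there the second background had no difference beyond counting error.

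*H2-Q4*, a non-classical heavy chain of the Q region, had the lowest ratio of all members in both backgrounds. It was at 124 CPM in B10 and 32.8 in *mdx*, and at 130 in DBA and 35.4 in D2-*mdx*, with log2 ratios of -1.92 (-2.01 to -1.83) and -1.87 (-1.97 to -1.78). In each background the dystrophin-deficient library was the lower one. *H2-Q7*, which encodes a Qa-2 antigen, was scarce: its 93, 120, 224 and 206 UMIs in B10, *mdx*, DBA and D2-*mdx* gave 2.33, 2.97, 7.44 and 5.90 CPM. Its ratio was 0.35 (-0.05 to 0.76) in the first pair and -0.33 (-0.61 to -0.05) in the second. *H2-T23*, which encodes Qa-1, the ligand of the NKG2 receptors of natural killer cells, was at 15.2 and 16.3 CPM in B10 and *mdx*, a ratio of 0.10 (-0.06 to 0.26). It was at 12.0 in DBA and 16.5 in D2-*mdx*, a ratio of 0.46 (0.27 to 0.65).

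*B2m*, the light chain shared by all class I molecules, was the member with the highest ratio in D2-*mdx*. B10 was at 186 CPM and *mdx* at 196, a ratio of 0.07 (0.03 to 0.12). DBA was at 106 and D2-*mdx* at 229, a ratio of 1.12 (1.06 to 1.18), with DBA the low library of the 4. *Tap1*, a subunit of the peptide transporter, was at 14.4 and 11.1 CPM in B10 and *mdx*, a ratio of -0.38 (-0.56 to -0.20). In DBA and D2-*mdx* it was at 8.14 and 9.31, and the interval of the ratio held 0 (0.19, -0.05 to 0.44). *Tapbp*, which encodes tapasin, was at 41.5 and 28.6 CPM in B10 and *mdx*, and at 34.4 and 33.0 in DBA and D2-*mdx*. Its ratios were -0.54 (-0.65 to -0.43) and -0.06 (-0.18 to 0.06).

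The immunoproteasome subunits had the same pattern as *Tapbp*. *Psmb8* was at 35.4 CPM in B10 and 24.3 in *mdx*, and at 32.1 in DBA and 31.6 in D2-*mdx*, with ratios of -0.54 (-0.66 to -0.42) and -0.02 (-0.15 to 0.10). *Psmb9* was at 18.2 and 12.3 CPM, a ratio of -0.57 (-0.73 to -0.40), and at 19.6 and 19.8, a ratio of 0.01 (-0.15 to 0.18). Both were thus lower in *mdx* than in B10, while in the other background counting error alone covered the difference.

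**Figure D1:**
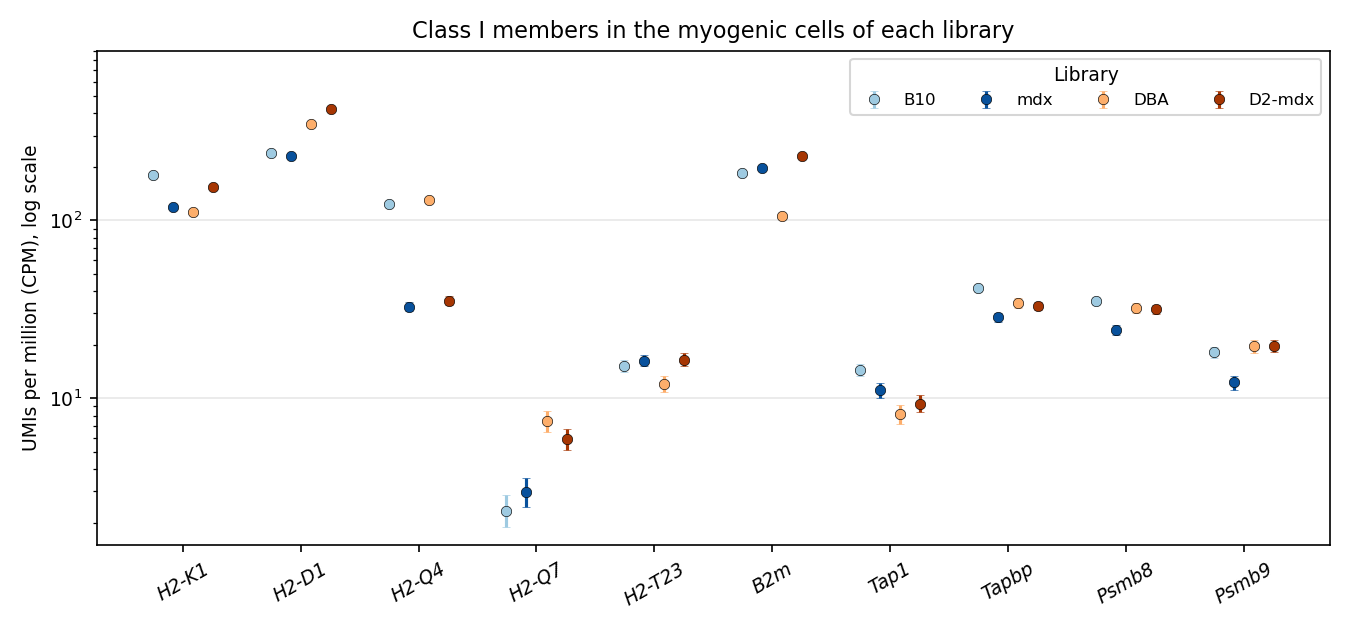
Level of each class I member in the myogenic cells of the 4 libraries, in CPM on a log axis, with exact 95% Poisson intervals as bars. H2-Q4 lies lower in mdx (32.8) than in B10 (124) and lower in D2-mdx (35.4) than in DBA (130), while for B2m the DBA library is the low one at 106.

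The median log2 ratio of the 10 members in myogenic cells was -0.46 for *mdx* over B10, against -0.03 for all genes, and 0.10 for D2-*mdx* over DBA, against -0.07. Counted at 1.5-fold among genes with at least 10 CPM in 1 of the 2 libraries, 0 of 9 members were higher in *mdx* (10.3% of all genes) and 1 of 9, *H2-Q4*, was lower (13.6% of all genes). *H2-K1*, *Tapbp*, *Psmb8* and *Psmb9* lay at -0.54 to -0.58, just short of the log2 limit of 0.585. In D2-*mdx*, 1 of 8 members was higher, *B2m* (13.0% of all genes), and 1 of 8 was lower, *H2-Q4* (17.6% of all genes). At this limit the members' shares were near those of all genes.

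Within MuSC-like cells more members passed 1.5-fold. For *mdx* over B10 the median of the members was -0.34, and 3 of 9 were lower, *H2-Q4*, *Tap1* and *Psmb9* (10.4% of all genes), and 0 higher (6.33%). *H2-K1* was at 179 CPM in B10 and 152 in *mdx*, a ratio of -0.23 (-0.29 to -0.16), and *H2-D1* at 241 and 301, a ratio of 0.32 (0.27 to 0.36). *H2-D1* thus stood higher in *mdx* within MuSC-like cells although it was not higher over all myogenic cells. For D2-*mdx* over DBA the median was 0.16, and 4 of 8 members were higher: *H2-K1*, *H2-D1*, *H2-T23* and *B2m* (7.67% of all genes). *B2m* was at 102 and 210 CPM, a ratio of 1.04 (0.97 to 1.11), *H2-D1* at 350 and 549 (0.65, 0.61 to 0.69), *H2-T23* at 11.8 and 19.3 (0.71, 0.48 to 0.93) and *H2-K1* at 111 and 171 (0.63, 0.55 to 0.70). These are 4 of the 6 chain genes, of which *H2-Q7* was at -0.05 (-0.39 to 0.29), while *Tap1*, *Tapbp*, *Psmb8* and *Psmb9* had ratios of 0.06 to 0.19. Only *H2-Q4* was lower (11.5% of all genes), at 136 CPM in DBA and 52.2 in D2-*mdx*.

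In *mdx* and D2-*mdx* the DMD-enriched-like class held less of most members than MuSC-like cells of the same library. The median log2 ratio of the members was -0.36 in *mdx* and -0.42 in D2-*mdx*, against 0.07 and 0.03 for all genes. The intervals of 7 of 10 members lay below 0 in *mdx* and those of 6 in D2-*mdx*, with 1 above 0 in each. The share of all genes with such intervals is not given here, so these counts do not set the members apart. In *mdx* the levels of the class were 68.7 CPM for *H2-K1*, 139 for *H2-D1* and 11.6 for *H2-Q4*. Their log2 ratios over MuSC-like cells were -1.15 (-1.26 to -1.04), -1.11 (-1.19 to -1.04) and -2.14 (-2.40 to -1.89). In D2-*mdx* the levels were 111, 246 and 12.6 CPM, with ratios of -0.63 (-0.74 to -0.52), -1.16 (-1.23 to -1.09) and -2.05 (-2.37 to -1.74). Among the 9 members past the minimum of 10 CPM, these 3 were the ones at least 1.5-fold lower, in *mdx* (8.70% of all genes) and in D2-*mdx* (9.87%). *H2-Q7*, under the minimum, was at 1.27 against 3.55 CPM in *mdx* and at 3.39 against 6.95 in D2-*mdx*. *B2m* did not go with its heavy chains, at -0.16 (-0.24 to -0.09) and 0.13 (0.05 to 0.22), and *Tap1* was at 0.49 (0.17 to 0.82) in *mdx*. In the control libraries, with 67 and 58 cells, the intervals of *H2-K1* and *H2-D1* held 0, while *H2-Q4* was at 0.09 (-0.19 to 0.36) in B10 and at -1.62 (-2.12 to -1.15) in DBA. The share of myogenic cells in this class differs between the strains, and its part in the ratios over all myogenic cells was not tested beyond the values within MuSC-like cells.

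Differentiating myocyte-like cells were named by *Myog* and *Tnnt2*, and were divided by their *Myog* from the DMD-enriched-like cells of the same cluster. Among myogenic classes with at least 50 cells they had the lowest median of the members in *mdx* and D2-*mdx*, though not the lowest level of every member. Below MuSC-like cells, the median of the members was 2.48-fold lower among the 232 *mdx* cells, 1.56-fold lower among the 50 DBA cells and 2.75-fold lower among the 209 D2-*mdx* cells. By member, 7 of 8 were at least 1.5-fold lower in *mdx* (25.2% of all genes), 4 of 8 in DBA (18.2%) and 7 of 8 in D2-*mdx* (22.9%). *Psmb8* was at 8.13 CPM in *mdx* and 11.0 in D2-*mdx*, and *H2-D1* at 112 and 214. *B2m* was at 138 and 218 CPM, with a ratio over MuSC-like cells of -0.55 (-0.70 to -0.41) in *mdx* and one in D2-*mdx* whose interval held 0 (0.05, -0.08 to 0.19). Cycling progenitor-like cells differed less from MuSC-like cells, with medians 1.43-fold and 1.09-fold lower for B10 and *mdx*, and 1.10-fold and 1.18-fold lower for DBA and D2-*mdx*.

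The immunomyoblast-like class, named by the interferon-induced genes *Ifit1*, *Ifit3*, *Isg15*, *Usp18* and *Ifit3b*, was the myogenic class with the highest median of the members. Only B10 and *mdx* had at least 50 such cells, 104 and 81. The median of the members was 1.98-fold that of MuSC-like cells in B10 and 2.02-fold in *mdx*, with 8 of 10 members at least 1.5-fold higher in B10 (5.60% of all genes) and 6 of 9 in *mdx* (9.12%). *Tap1* was at 45.0 CPM in B10 and 78.0 in *mdx*, against 13.9 and 8.68 in MuSC-like cells. *Psmb8* was at 97.9 and 130 CPM, against 35.0 and 25.6. *H2-K1* differed less, at 280 and 183 CPM against 179 and 152. *H2-Q7* in B10, at 11.3 CPM against 2.20, and *Tap1* in *mdx* passed the minimum of 10 CPM only through this class. The class was named by interferon-induced genes, and class I genes respond to interferons, so these counts are not an independent result. Ratios of *mdx* over B10 within the class had a median of 0.30, with *H2-T23* at 1.30 (0.67 to 1.95) and *H2-Q4* at -1.91 (-2.46 to -1.39).

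*H2-Q4* differed from *H2-K1* in its spread among stem cells. MuSC-like cells comprised a sub-cluster led by the immediate-early genes *Nr4a1*, *Btg2*, *Fosb* and *Klf4* and one low in them. *H2-Q4* was at 145 CPM in the former and 66.6 in the latter for B10, and at 62.3 and 23.2 for *mdx*. The same values were 164 and 64.7 for DBA, and 57.1 and 35.7 for D2-*mdx*. In all 4 libraries the immediate-early sub-cluster was the higher one. *H2-K1* had no such gap in that direction, at 180 and 175 CPM for B10 and 152 and 158 for *mdx*. Its values were 108 and 117 for DBA, and 164 and 201 for D2-*mdx*. In DBA, *H2-T23* was also higher in the immediate-early sub-cluster, at 13.0 against 9.20 CPM. In B10, *mdx* and D2-*mdx* it was lower there. *H2-Q7* was at 7.83 against 5.02 CPM in DBA, with smaller gaps in the other libraries. The ratio of *H2-Q4* between strains was present in both sub-clusters, at 145 against 62.3 CPM and 66.6 against 23.2 CPM in the first background. It was also present in cycling progenitor-like cells, at -1.61 (-1.96 to -1.26) and -2.03 (-2.37 to -1.69). In pericyte-like cells the ratio was nearer to 0: *H2-Q4* was there at 51.1 CPM in B10 and 68.9 in *mdx*, a ratio of 0.43 (0.01 to 0.87), and at 78.8 in DBA and 60.3 in D2-*mdx*, a ratio of -0.39 (-0.58 to -0.20).

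Endothelial cell-like cells had the highest median of the members of any class with at least 50 cells. In *mdx* they held 1370 CPM of *H2-K1*, 2010 of *H2-D1* and 1470 of *B2m*, and in D2-*mdx* 2010, 4540 and 2140. All 10 members were at least 1.5-fold above MuSC-like cells in both libraries (31.0% of all genes in *mdx*, 31.2% in D2-*mdx*), with medians of 7.90-fold and 9.05-fold. White blood cell-like cells were at 6.78-fold in *mdx* and 3.74-fold in D2-*mdx*, with 9 of 10 members higher (28.5% and 25.5% of all genes). The member left out was *H2-Q4*, whose ratios were -0.27 (-0.73 to 0.16) and 0.00 (-0.32 to 0.30). The white blood cell-like class differed in content between the libraries. Its *S100a8* was at 11.4 CPM in *mdx* and 5670 in D2-*mdx*, and its *Cd74* at 5790 and 2420. The folds of this class are therefore not a comparison of 1 cell type between strains. Glial cell-like cells were at 4.62-fold and 3.85-fold, with all 10 members higher (30.9% and 28.6%), and in *mdx* their *H2-Q7* was at 123 CPM against 3.55 in MuSC-like cells. In MuSC-like cells of *mdx* and D2-*mdx*, *H2-Q7* (3.55 and 6.95 CPM) and *Tap1* (8.68 and 8.98) were under 10 CPM. These members entered the counts of this paragraph only through the class in which they were high.

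Pericyte-like cells, the mural cells of small vessels, were numerous enough for all 4 libraries (97, 610, 483 and 977 cells). The median of the members was 2.35-fold and 2.78-fold that of MuSC-like cells for B10 and *mdx*, and 1.91-fold and 2.24-fold for DBA and D2-*mdx*. At 1.5-fold, 9 of 10 members were higher in B10 (30.1% of all genes) and 8 of 9 in each of the other libraries (27.7% of all genes in *mdx*, and 26.0% and 26.1% in the DBA and D2-*mdx* libraries). Among these, *H2-Q7* in B10 (2.20 CPM) and *Tap1* in *mdx*, DBA and D2-*mdx* (8.68, 8.25 and 8.98) were under 10 CPM in MuSC-like cells. They entered the counts only through the pericyte-like cells. *H2-T23* was at 145, 102, 65.3 and 82.6 CPM against 14.9, 18.4, 11.8 and 19.3 in MuSC-like cells. Between strains, *mdx* and B10 pericyte-like cells did not differ beyond counting error in *H2-K1* (0.08, -0.07 to 0.24) or *B2m* (0.02, -0.09 to 0.13), while *H2-D1* was at 0.44 (0.32 to 0.57) and *H2-T23* at -0.51 (-0.77 to -0.24), with a median of 0.05 over the members. D2-*mdx* was above DBA in *H2-K1*, at 452 against 231 CPM (0.97, 0.88 to 1.06), in *H2-D1* at 1030 against 616 (0.75, 0.69 to 0.80), in *B2m* at 753 against 457 (0.72, 0.65 to 0.79) and in *Psmb8* at 145 against 90.9 (0.67, 0.52 to 0.82), with a median of 0.69.

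Classes below MuSC-like cells were found outside the myogenic cells too. In *mdx*, Schwann cell-like cells (79 cells) had a median of 9 members 1.52-fold lower, with 0 UMIs of *H2-Q7*, while their *B2m* was at 580 CPM against 202. Of these 9 members, the intervals of 2 lay below 0 and that of 1 above 0, and the share of all genes with such intervals is not given here. The Schwann cell-like median, -0.61 on the log2 scale, ran from -0.76 to 0.43 over 7 alternatives of the processing, so its sign was not stable. Vascular smooth muscle-like cells of *mdx* (56 cells) had a median of 9 members 1.75-fold lower and 0 UMIs of *Psmb9*. Fibroblast or tenocyte-like cells of D2-*mdx* (50 cells) were 1.60-fold higher. Of the 26 combinations of a library with a class other than MuSC-like of at least 50 cells, the median lay above 0 on the log2 scale in 13.

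**Figure D2:**
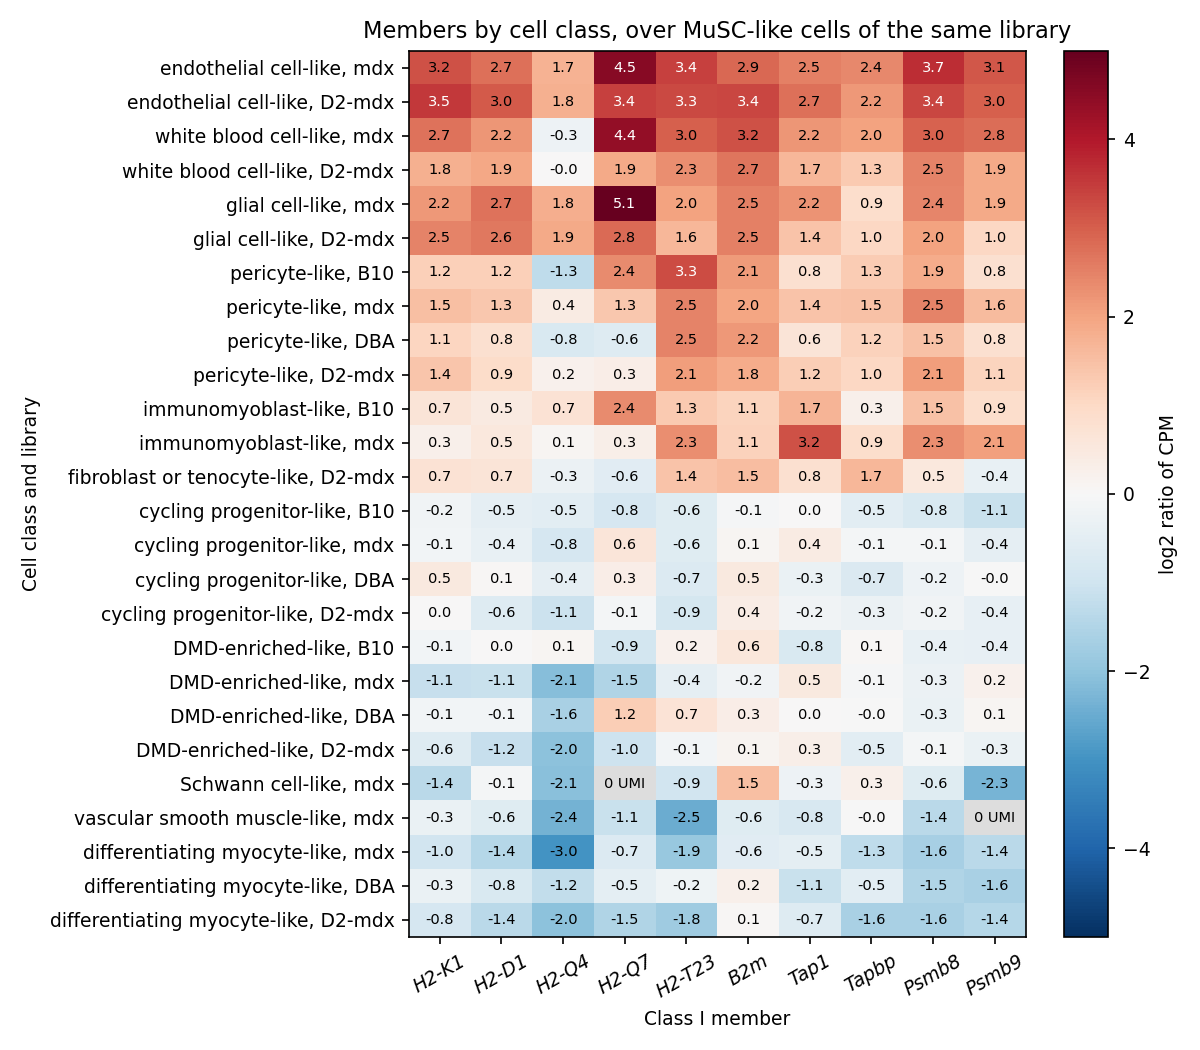
log2 ratio of the CPM of each member (columns) in a class of cells over MuSC-like cells of the same library (rows), for classes with at least 50 cells; red is higher, blue is lower and grey marks 0 UMIs. Endothelial cell-like rows are red for all 10 members, differentiating myocyte-like rows are mostly blue, and H2-Q4 is pale in white blood cell-like rows.

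Non-myogenic cells supplied more of the class I UMIs than of all UMIs. In *mdx*, myogenic cells gave 76.6% of all UMIs but 36.7% (35.8 to 37.5) of *H2-K1* UMIs, 38.3% (37.6 to 38.9) of *B2m* and 32.3% (30.7 to 34.0) of *Psmb8*. In D2-*mdx* they gave 72.5% of all UMIs and 39.8% (38.9 to 40.6), 38.7% (38.0 to 39.4) and 35.3% (33.6 to 37.0) of the same members. In B10 they gave 95.9% of all UMIs and 89.4% of *H2-K1*, and in DBA 81.3% and 66.9%. *H2-Q4* again differed, with myogenic shares of 97.3% in B10 and 86.9% in DBA that were above the share of all UMIs. The share of *H2-Q7* in DBA, with 224 of 268 UMIs from myogenic cells, was slightly above it too.

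**Figure D3:**
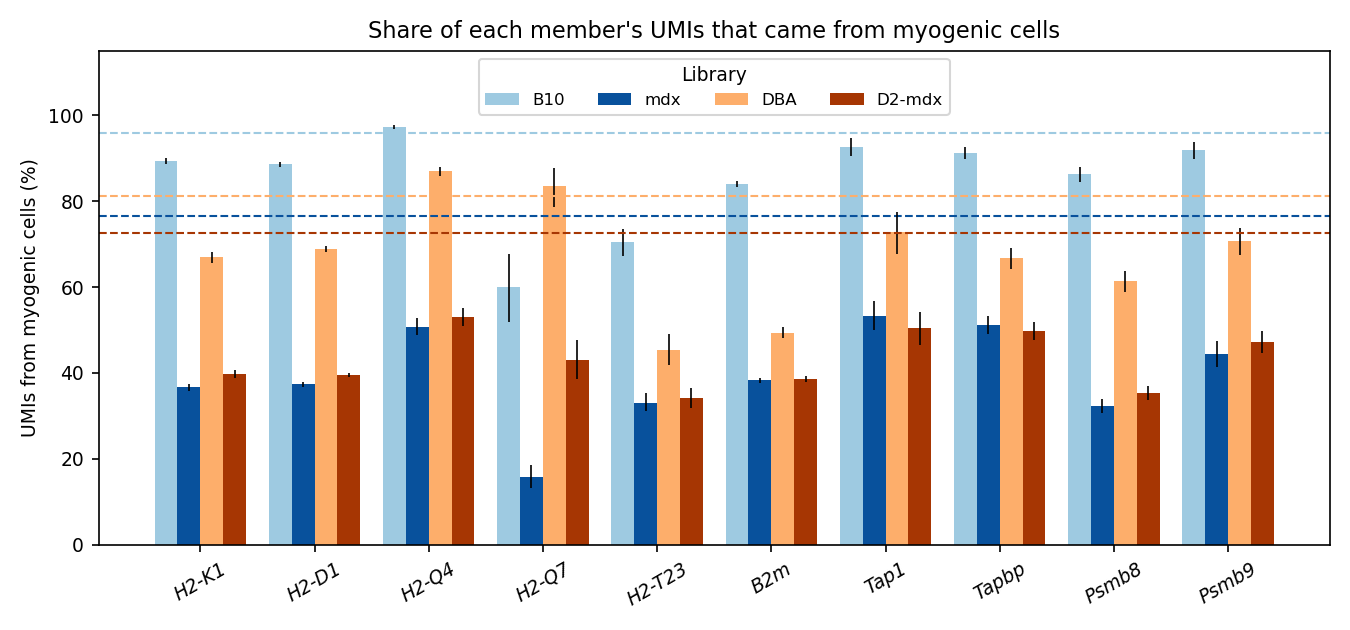
Share of each member's UMIs that came from myogenic cells, in percent from 0, with exact 95% binomial intervals; dashed lines mark the share of all UMIs of the same library. In mdx and D2-mdx all 10 bars lie below their line at 76.6% and 72.5%. In B10 and DBA the bar of H2-Q4 lies above the line, as does that of H2-Q7 in DBA.

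Taking all sorted cells together turned the sign in the first background. Summed over the 10 members, myogenic cells were at 854.8 CPM in B10 and 672.5 in *mdx*, and at 808.6 in DBA and 957.3 in D2-*mdx*. All cells were at 926.5 in B10 and 1349 in *mdx*, and at 987.1 in DBA and 1735 in D2-*mdx*. The median ratio over all cells was 0.46 for *mdx* over B10 and 0.58 for D2-*mdx* over DBA. In *mdx*, 4 of 10 members were then at least 1.5-fold higher, *H2-D1*, *H2-Q7*, *H2-T23* and *B2m* (15.4% of all genes), and 1 of 10 was lower (10.9%). In D2-*mdx*, 5 of 9 were higher, *H2-K1*, *H2-D1*, *H2-T23*, *B2m* and *Psmb8* (13.3% of all genes), and 1 of 9 was lower (15.0%). *H2-Q4* was the lower member in both. There were 163 non-myogenic cells in B10 and 1492 in *mdx*, against 580 in DBA and 1570 in D2-*mdx*.

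**Figure D4:**
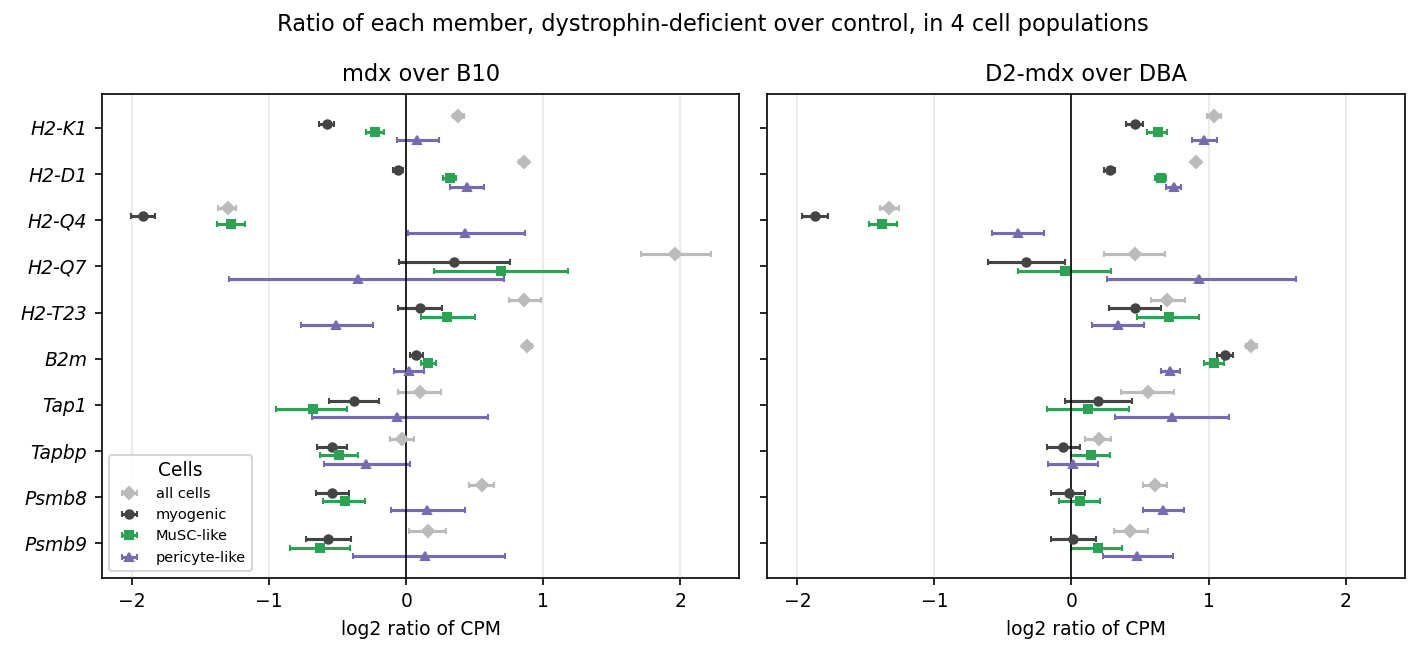
log2 ratio of each member, mdx over B10 on the left and D2-mdx over DBA on the right, in all cells, myogenic cells, MuSC-like cells and pericyte-like cells, with exact 95% intervals. For mdx over B10, H2-K1 is at 0.38 in all cells and -0.58 in myogenic cells, on opposite sides of 0; H2-Q4 is low in myogenic and MuSC-like cells in both panels.

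An immunoproteasome replaces the 3 catalytic subunits of the constitutive proteasome, with *Psmb8* in place of *Psmb5*, *Psmb9* in place of *Psmb6* and *Psmb10* in place of *Psmb7*. Among the UMIs of *Psmb8* and *Psmb5* in myogenic cells, the share of *Psmb8* was 22.7% (21.6 to 23.7) in B10 and 12.6% (11.9 to 13.4) in *mdx*, against 19.1% (18.0 to 20.2) for DBA and 12.4% (11.7 to 13.1) for D2-*mdx*. It was lower in both dystrophin-deficient libraries. *Psmb8* itself did not differ between DBA and D2-*mdx* beyond counting error, while *Psmb5* was at 121 and 169 CPM in the first pair and at 136 and 223 in the second. Within MuSC-like cells *Psmb5* was at 117 and 124 CPM in the first pair and at 131 and 158 in the second. There the shares of *Psmb8* lay closer, at 23.1% in B10 and 17.1% in *mdx*. The D2-*mdx* share, 17.8% (16.5 to 19.1), was below that of DBA, whose interval was 18.9% to 21.2%. The DBA and D2-*mdx* intervals overlap at their ends, but each share lay outside the interval of the other library. The overlap therefore does not show equal shares. The share of *Psmb9* was 8.49% and 5.60% in B10 and *mdx*, and 12.0% and 9.02% in DBA and D2-*mdx*. In MuSC-like cells it was 8.85% and 6.45% in the first pair, and 12.5% (11.6 to 13.6) and 12.7% (11.5 to 13.9) in the second. *Psmb10*, which is not among the 10 genes, went the other way, at 18.9% and 22.4%, and 19.9% and 26.3%. By class, the *Psmb8* share was 64.8% and 59.7% in endothelial cell-like cells of *mdx* and D2-*mdx*, 49.7% in immunomyoblast-like cells of both B10 and *mdx*, and 3.01% and 3.59% in differentiating myocyte-like cells of *mdx* and D2-*mdx*.

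**Figure D5:**
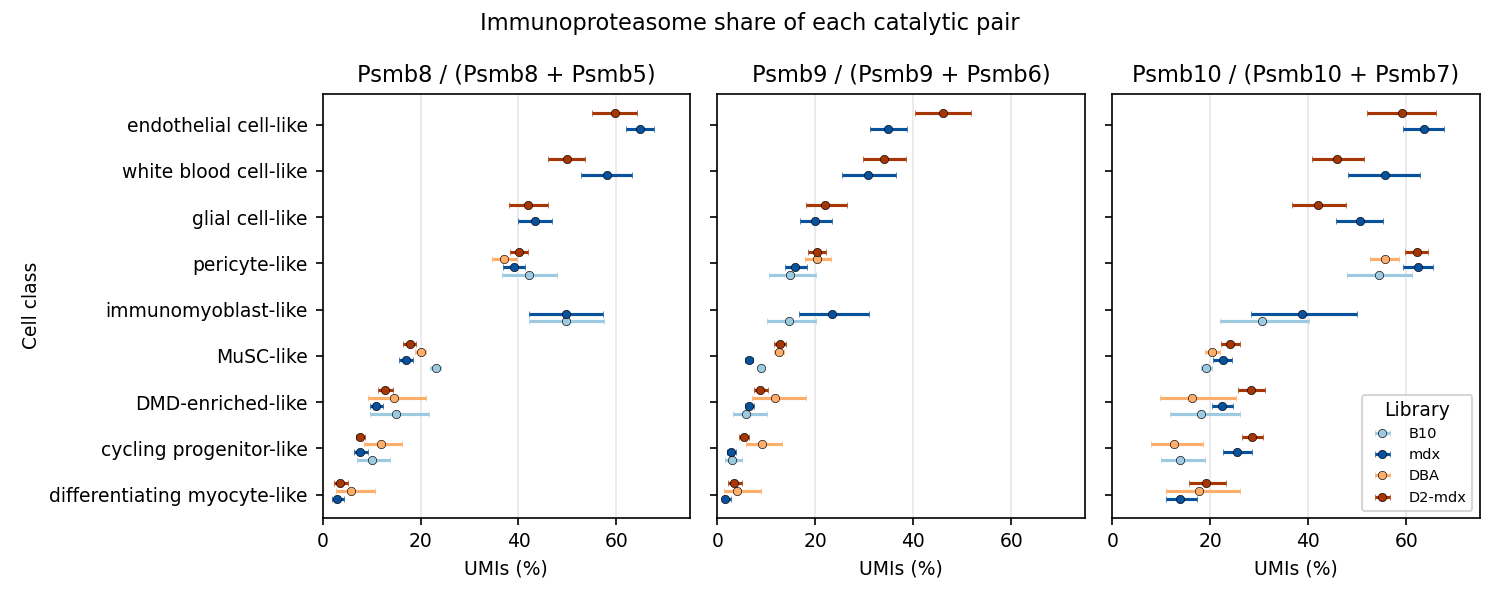
Share of the immunoproteasome subunit in the UMIs of each catalytic pair, in percent, by class and library, with exact 95% binomial intervals. The Psmb8 share runs from 3.01% in differentiating myocyte-like cells of mdx to 64.8% in endothelial cell-like cells of mdx.

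Over all myogenic cells, other genes of the pathway differed in both directions. Ratios of these genes within MuSC-like cells were not computed. Of 16 other class I genes, 15 were among the features, and 12 reached the minimum in the first pair and 11 in the second. At 1.5-fold, 2 were higher (10.3% of all genes) and 5 lower (13.6%) in *mdx*, with a median of -0.16, and 1 was higher (13.0%) and 2 lower (17.6%) in D2-*mdx*, with a median of 0.01. *Pdia3* and *Calr*, chaperones of the peptide-loading complex with wider roles in protein folding, were at 0.97 (0.93 to 1.01) and 0.67 (0.64 to 0.70) in *mdx*, and at 0.39 (0.35 to 0.43) and 0.01 (-0.03 to 0.05) in D2-*mdx*. *Psmb10* was at 0.21 (0.08 to 0.34) and 0.86 (0.73 to 1.00). In MuSC-like cells *Psmb10* had 783 of 35956344 UMIs in B10 and 382 of 19128507 in *mdx*, so it was not higher in *mdx* there. In DBA it had 577 of 27147287 UMIs and in D2-*mdx* 447 of 17697291, so it was higher in D2-*mdx* there, but by less than over all myogenic cells. *Tap2*, the partner of *Tap1* in the transporter, was at -0.84 (-0.95 to -0.73) and -0.40 (-0.53 to -0.27), and *Erap1*, which trims peptides, at -0.98 (-1.19 to -0.76) and -0.47 (-0.69 to -0.26). *H2-Q10*, a Q-region gene like *H2-Q4*, was at -1.31 (-1.55 to -1.08) and -2.49 (-2.84 to -2.15). *Nlrc5*, the transactivator of class I genes, had 7 UMIs each in B10 and *mdx*, and 3 and 12 in the other pair, too few to compare. None of the 3 constitutive subunits passed 1.5-fold in *mdx* (median 0.08), beside 10.3% of all genes higher and 13.6% lower. In D2-*mdx* 1 of 3 was higher (13.0% of all genes), *Psmb5* at 0.72 (0.66 to 0.77). *Psmb6* was at 0.48 and *Psmb7* at 0.35, with a median of 0.48. In MuSC-like cells of DBA and D2-*mdx*, *Psmb5* was at 131 and 158 CPM, *Psmb6* at 139 and 156, and *Psmb7* at 82.9 and 79.8.

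Receptors and regulators of the interferon pathway were split over all myogenic cells, and their ratios within MuSC-like cells were not computed. Of 13 genes in the first pair, 2 were higher and 4 lower, with a median of -0.37, beside 10.3% and 13.6% of all genes. Of 12 in the second, 2 were higher and 3 lower, with a median of -0.20, beside 13.0% and 17.6% of all genes. The interferon-γ receptor genes *Ifngr1* and *Ifngr2* were higher in both, at 0.60 (0.53 to 0.68) and 0.79 (0.64 to 0.95) in *mdx* and at 0.90 (0.82 to 0.98) and 1.24 (1.07 to 1.42) in D2-*mdx*. *Irf8*, *Irf9* and *Jak2*, which act downstream of interferon receptors, were at -1.78, -1.25 and -0.54 in *mdx* and at -0.89, -0.67 and -0.67 in D2-*mdx*. *Jak1* was at 0.09 and -0.15. The 5 interferon ligands *Ifnb1*, *Ifng*, *Ifna4*, *Ifnk* and *Ifnl3* were at or near 0 in myogenic cells, with at most 14 UMIs of any in 1 library. Of 7 class II genes, none reached the minimum in the first pair. In the second, *Cd74* was at 1.66 CPM in DBA and 13.9 in D2-*mdx* (3.06), and *H2-Ab1* at 30.1 and 10.7 (-1.49).

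Transcripts of white blood cells were present at a low level in myogenic cells and differed between the libraries. Summed over a list of 12 such genes, including *Lyz2*, *Ptprc* and *Cd74*, they were at 2.83 CPM in B10 and 29.2 in *mdx*, and at 43.0 in DBA and 130 in D2-*mdx*, against 23600 and 37200 CPM in the white blood cell-like cells of *mdx* and D2-*mdx*. *H2-Ab1* alone gave 905 of the 1295 UMIs of the list in DBA, against 50 of *Cd74*, whereas the white blood cell-like cells of DBA held 185 UMIs of *H2-Ab1* and 849 of *Cd74*. Of the 12 genes, 1 was at 0 in B10 and in *mdx*, and none in DBA and D2-*mdx*. From this list 1 gene reached the minimum in the first pair, *Lyz2* at 4.42 (3.79 to 5.12). In the second pair 3 did, with 2 higher (13.0% of all genes) and 1 lower (17.6%). If such transcripts came with class I RNA in the ratio found in white blood cell-like cells, they would bring 1.25 CPM (1.05%) of the *H2-K1* of *mdx* and 2.07 CPM (1.34%) of that of D2-*mdx*, and at most 3.16% of any member, *H2-Q7* of *mdx*. Free RNA from endothelial cell-like, glial cell-like or pericyte-like cells was not estimated. *Lyz2* was also at 1480 CPM in glial cell-like cells of *mdx* and at 2310 in those of D2-*mdx*. The list therefore does not mark white blood cells alone. Without a UMI of the list there were 4325 B10, 4061 *mdx*, 1830 DBA and 2238 D2-*mdx* myogenic cells. In these cells, an alternative chosen after seeing the data, the medians of the members were -0.43 and 0.15, with *H2-K1* at -0.56 and 0.51, *H2-Q4* at -1.86 and -1.75, and *B2m* at 0.08 and 1.03.

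The share of MuSC-like cells with a UMI of a member followed the summed levels. Cells were thinned to 3000 UMIs, since their median depth was 8249 and 5589 UMIs for B10 and *mdx* and 10150 and 5579 UMIs for DBA and D2-*mdx*, and 39 myogenic cells of B10 were shallower and left out. *H2-Q4* was then found in 24.5% (23.2 to 25.8) of B10 and 12.7% (11.5 to 13.9) of *mdx* cells, and in 25.2% (23.5 to 27.0) of DBA and 12.8% (11.6 to 14.1) of D2-*mdx* cells. Unthinned, the shares of the first pair were 45.8% and 20.3%. *B2m* was found in 40.2% and 41.7%, and in 26.4% and 42.3%, while the unthinned shares of DBA and D2-*mdx* were 63.2% and 64.5%. *H2-D1* was found in 49.1% and 55.1%, and in 62.7% and 73.7%, against 79.4% and 74.7% unthinned in the first pair. No class here is known to lack class I, so no share of background UMIs was available for all members. The lowest share of *H2-Q4* above 0 in the *mdx* library was 1.29% (0.267 to 3.73) after thinning, from 3 of 232 differentiating myocyte-like cells.

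The genes whose pattern over classes was most like the members' were ranked by Spearman's rho with the members' mean standardized level, over 21 sums of class and library in the B10 and *mdx* libraries and 20 in the DBA and D2-*mdx* libraries. MuSC-like cells entered as their sub-clusters, and sums of 1 library share its depth, so rho is a description. Among 11476 genes outside the members the highest means of the 2 rho values were 0.878 for *H2-M3*, 0.867 for *Oasl2*, 0.856 for *Irf9*, 0.849 for *Ifih1*, 0.837 for *Samd9l*, 0.834 for *Tapbpl*, 0.832 for *Gbp5*, 0.828 for *Lgals3bp*, 0.826 for *Acvrl1* and 0.824 for *Ddx60*. The members themselves ran from 0.935 for *Psmb8* down to 0.561 for *H2-Q4*. The mean was taken over the members, so their values are not comparable with those of genes outside them.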

How the data were processed

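Single-cell 3′ libraries (10X Genomics) were made from sorted hindlimb satellite cells, 1 library per strain. Reads had been mapped by the authors against mm10 in Cell Ranger 3.0.1, and the deposited values are raw UMI counts per gene and barcode. Whether barcodes were filtered before deposit is not given in the sources used here. The 10 members and the gene lists were chosen with earlier results of these data known.

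Cells were kept if they had 1000 to 5000 genes and no more than 8% of UMIs from mitochondrial genes. Scrublet (scanpy 1.11.5) scored doublets, and the highest-scoring cells were removed up to an expected rate of 0.008 per 1000 cells, which was 91 to 356 cells per library. Seurat 5.3.0 (R 4.3.3) integrated the libraries by canonical correlation analysis with 2000 variable features, 1991 of them used, and 30 dimensions, leaving out 26 class I genes, and were clustered at resolution 0.1 (all cells) and 0.2 (myogenic cells). Names came from marker genes. A cluster in which the differentiating myocyte and DMD-enriched markers tied was divided by its clusters at resolution 0.4, a step decided after seeing the data. The finer cluster with the most *Myog* per UMI was called differentiating myocyte-like and the rest DMD-enriched-like. No myofibre cluster appeared, so none was removed.

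UMIs were summed by class and library and scaled to the total (CPM). With 1 library per group no test was run. CPM has exact Poisson intervals, log2 ratios have intervals from the exact Clopper-Pearson interval of the UMIs of both libraries, and shares have exact binomial intervals, all at 95%. Calls used 1.5-fold among genes with at least 10 CPM in 1 library, and classes under 50 cells were not used for ratios. A gene could pass this minimum through the library or class in which it was high, for members and all genes alike. All 10 members are named. Of each list, up to 3 genes with the largest and up to 3 with the smallest mean of both ratios are named, with *Nlrc5*, the interferon ligands and the example genes of the white blood cell list added after their values were seen. Coordinates are from GENCODE M21. The interval method was tested on simulated Poisson counts only. These hold no variation between mice, libraries or cells, so the simulation bears on counting error alone. Python 3.11.15, numpy 2.4.6, scipy 1.17.1, pandas 2.3.3 and matplotlib 3.10.9 were used, with edgeR 4.0.16 and DESeq2 1.42.0 for other scalings.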

Additional observations from a re-analysis of the deposited data

Results flagged for a closer look

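*H2-K1* and *H2-D1* were the 2 members whose ratios in myogenic cells had opposite signs in the backgrounds with neither interval holding 0. *H2-K1* was at -0.58 for *mdx* over B10 and at 0.46 for D2-*mdx* over DBA. *H2-D1* was at -0.06 and at 0.28. Its first value was close to 0: scaling by edgeR or DESeq2 shifted ratios of that pair by 0.05 and 0.06. Over 13 alternatives its sign in that pair turned in 3, so the opposite sign of *H2-D1* was not stable. The difference between the backgrounds was not tested, since each strain is 1 library, and the backgrounds differ in H2 haplotype, in the ages of the mice and in the share of myogenic classes. Within MuSC-like cells *H2-K1* kept both signs, at -0.23 and 0.63, while *H2-D1* was at 0.32 and 0.65.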

How the results depend on the processing

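No paired analysis was possible because each strain has 1 library. Over all cells in place of myogenic cells the median of the members for *mdx* over B10 turned to 0.46, and for D2-*mdx* over DBA it was 0.58. There 4 of 10 members (15.4% of all genes) and 5 of 9 members (13.3%) were higher. *H2-K1* turned to 0.38, *H2-D1* to 0.86, *Tap1* to 0.10, *Psmb8* to 0.55 and *Psmb9* to 0.16 in the first pair, and *H2-Q7* to 0.46 in the second. This alternative adds the non-myogenic cells. *H2-D1* in the first pair also turned in MuSC-like cells (0.32) and as a mean over cells of counts per 10000 UMIs (0.12). Members lower in *mdx* numbered 3 in MuSC-like cells (10.4% of all genes), against 1 as reported (13.6%). They numbered 3 without immunomyoblast-like cells, 3 with at least 500 genes and no upper limit, and 2 with 20 dimensions. Shares of all genes under these last settings are not given here. In MuSC-like cells 4 members were higher in D2-*mdx* (7.67% of all genes). Within classes, *mdx* over B10 had medians below 0 in 2 of 5 classes as reported, in 5 of 6 with at least 500 genes, in 4 of 6 with class I genes allowed among the features, in 1 of 2 without integration and in 1 of 4 at resolution 0.4, and D2-*mdx* over DBA above 0 in 3 of 5. The cause was not tested. Over the other alternatives the median of the first pair lay at -0.51 to -0.34 and that of the second at -0.03 to 0.18, where -0.03 came with at least 500 genes, so its sign was not stable. Of the values that answer a comparison, 94 stayed near the reported value, 12 moved and 1 turned. Of the values of single members, classes and shares, 408 stayed, 142 moved and 8 turned. Some classes fell under 50 cells under some alternatives and gave no value there. Scaling by edgeR or DESeq2 shifted the median of all genes by 0.05 to 0.08. Counts of under 20 UMIs, as for *Tap1* and *Psmb9* in small classes, limit what the depth can show.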
